A study of Mus musculus with 96 samples.

Results

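The 10 genes described here carry fatty acids into cells and build them into triglyceride: Gpam, Agpat2, Lpin1, Mogat1, Dgat1 and Dgat2 for assembly, Cd36, Lpl and Fabp4 for uptake and carriage, and Pparg, the nuclear receptor that acts on many genes of both steps. Members were taken by gene symbol alone, from a list drawn up with earlier results of these data known, and are 10 of the 19505 genes that the array annotation names with 1 symbol. Each of the 10 was read by 1 transcript cluster, the probe group with which the Clariom S array measures a gene. Liver, visceral fat, pancreas and striatum of the same 24 C57BL/6JOlaHsd mice were measured, 1 array a tissue and mouse, so that the 96 arrays held 4 tissues and each array was 1 animal. The mice were bought at 6 weeks of age, fed standard chow and injected subcutaneously every day for 28 days. The vehicle group (4 females and 4 males) received saline with DMSO and Tween 20, the risperidone group (4 females and 4 males) received 1 mg/kg of risperidone and the olanzapine group (4 females and 4 males) received 3.5 mg/kg of olanzapine. Risperidone and olanzapine are antipsychotics that block dopamine and serotonin receptors and are known for metabolic side effects. This substrain is known to lack the alpha-synuclein gene, a deletion that all groups share. The mice were killed 1 h after the last injection. Visceral fat was cut from the gonadal pads, which lie beside the ovary in females and the epididymis in males, so that sex and the site of the pad cannot be told apart in this tissue. Values are log2 units of the deposited normalized signal, so a difference of 1 unit is a doubling.

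A cell stores fatty acids by joining them one after another to a glycerol backbone: GPAT enzymes such as Gpam attach the first, AGPAT enzymes such as Agpat2 the next, lipins such as Lpin1 remove a phosphate, and Dgat1 or Dgat2 attaches the last. Mogat1 reaches the same diacylglycerol intermediate from monoacylglycerol. The adipocyte takes up its fatty acids from circulating lipoproteins, where Lpl, lipoprotein lipase, splits triglyceride at the capillary wall, Cd36 passes fatty acids through the membrane and Fabp4 binds them in the cytoplasm. Pparg is the master regulator of adipocyte differentiation and a known activator of Cd36, Lpl, Fabp4 and Agpat2 in adipocytes.

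Promoters from RefSeq (mouse build GRCm38.p6, 250 bases before to 50 after an annotated start) were held for 6 of the 10 members and covered 9 starts. The 4 below are shown because Gpam, Agpat2 and Pparg differed between the sexes in fat and Cd36 and Pparg in liver. Capitals mark the motifs searched on both strands: AGGTCA, the binding site unit of nuclear receptors, and TTGCNNAA, a C/EBP motif.
Gpam, chr19:55127189-55127488, minus strand: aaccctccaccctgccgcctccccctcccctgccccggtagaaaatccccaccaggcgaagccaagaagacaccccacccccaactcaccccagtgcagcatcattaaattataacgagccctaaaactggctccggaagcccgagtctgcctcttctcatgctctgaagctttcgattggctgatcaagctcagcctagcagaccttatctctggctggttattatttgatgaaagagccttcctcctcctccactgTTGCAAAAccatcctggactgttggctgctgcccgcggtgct
Agpat2, chr2:26604368-26604667, minus strand: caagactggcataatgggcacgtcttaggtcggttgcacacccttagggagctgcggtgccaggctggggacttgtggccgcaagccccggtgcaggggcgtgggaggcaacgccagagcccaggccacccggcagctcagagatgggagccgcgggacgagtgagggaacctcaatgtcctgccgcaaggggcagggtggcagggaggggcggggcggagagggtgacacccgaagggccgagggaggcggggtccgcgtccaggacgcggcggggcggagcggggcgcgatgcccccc
Pparg, chr6:115421816-115422115, plus strand, the third of 3 starts: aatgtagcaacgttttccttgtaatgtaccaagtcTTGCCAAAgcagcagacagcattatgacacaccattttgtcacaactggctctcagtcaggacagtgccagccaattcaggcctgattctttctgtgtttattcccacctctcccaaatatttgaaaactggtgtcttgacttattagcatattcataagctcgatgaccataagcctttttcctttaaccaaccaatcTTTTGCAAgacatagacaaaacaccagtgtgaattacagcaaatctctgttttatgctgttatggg
Cd36, chr5:17835847-17836146, minus strand: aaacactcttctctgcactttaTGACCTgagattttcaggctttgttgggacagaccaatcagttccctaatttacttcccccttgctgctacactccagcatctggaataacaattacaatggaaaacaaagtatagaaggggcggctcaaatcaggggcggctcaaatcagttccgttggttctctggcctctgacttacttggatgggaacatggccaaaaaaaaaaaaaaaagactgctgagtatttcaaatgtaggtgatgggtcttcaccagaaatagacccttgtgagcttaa

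The DR1 element, in which AGGTCA is repeated in the same direction after any single base and which PPARG binds with its partner RXR, was in 0 of the 9 windows and in 0.0396% of 32851 mouse promoters of the same length. The single unit AGGTCA was in 16.3% of them and in the windows of Cd36, Lpin1, the second start of Gpam and the first and second starts of Pparg. TTGCNNAA was in 10.8% of all promoters and in the printed window of Gpam 8 to 15 bases after the start. In the printed window of Pparg it was at positions -215 to -208 and -16 to -9 from the start. The E-box CACGTG (7.15% of all promoters) was in no member window, and TATAAA (13.6%) was only in that of the second Pparg start, where no base was shared with AGGTCA. The windows of Agpat2 and Mogat1 held no searched motif. Dgat1, Dgat2, Lpl and Fabp4 were the other members.

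Arrays of a tissue were alike in liver (each array's median correlation with the others 0.971 to 0.979) and striatum (0.977 to 0.988), less so in fat (0.797 to 0.954) and least in pancreas (0.647 to 0.847). The labelled tissues held their defining markers. Alb, albumin, was 19.69 to 19.93 in liver, Adipoq, adiponectin, 14.13 to 18.67 in fat, Cpa1, a pancreatic enzyme, 11.56 to 19.93 in pancreas, and Drd1, a dopamine receptor of striatal projection neurons, 9.16 to 14.37 in striatum. Several arrays stood apart. In fat, the mean of 5 epididymis markers was 18.68, 18.57 and 18.78 in risperidone-treated males M4, M5 and M23, 10.71 in risperidone-treated male M24 and 11.48 in olanzapine-treated male M9, against 7.01 to 8.94 in the vehicle group. The mean of 7 adipocyte markers was 11.51, 11.04 and 11.39 in M4, M5 and M23, against 12.94 to 15.12 in the other 21 mice. Fat results are therefore given with all 24 mice and without those 3 males, or without all 5, a choice made after seeing the data. The 5 males were those with a mean of epididymis markers above 10. Olanzapine-treated male M25, at 9.36, was also above the vehicle group and stayed in both smaller fits. So did vehicle-treated male M19, at 8.94, in which the epididymis marker Lcn5 was at 13.17. In pancreas, the mean of 8 hepatocyte markers was 15.65 in risperidone-treated female F4 and 6.85 to 12.28 in the others. The mean of 6 acinar cell markers, Cpa1 among them, was 12.5 in olanzapine-treated female F7 and 14.7 to 19.0 in the others. In vehicle-treated mice it was 14.8 to 15.7 in females and 16.8 to 19.0 in males, without overlap. In striatum, the mean of 6 projection neuron markers was 12.61 in olanzapine-treated female F26 and 14.60 to 16.64 in the others. In tissue pieces like these, fewer cells of a type and less RNA per cell cannot be told apart.

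None of the 80 comparisons of a member in a tissue between a drug and vehicle over both sexes passed an adjusted p of 0.05 (limma with Benjamini-Hochberg adjustment over all 19505 genes). An unadjusted p under 0.05 was found in 11 of the 80. The lowest p-values were those of Gpam in liver under risperidone, Agpat2 in fat under olanzapine and Cd36 in fat under risperidone, the last of which rested on the 3 males named above. The member differences that passed over both sexes or all treatments lay between females and males in liver and fat, and between the 2 drugs in striatum.

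In liver, Gpam was the member with the lowest p in both drug groups. Its lowest, median and highest values were 13.31, 13.91 and 14.39 under vehicle, 14.19, 14.62 and 14.90 under risperidone and 13.35, 14.33 and 15.05 under olanzapine. Of the 8 risperidone-treated mice, 6 were above every vehicle-treated mouse, and 4 of the 8 olanzapine-treated mice were, with overlap in both comparisons. The difference from vehicle was 0.69 under risperidone (SE 0.195, 95% interval 0.29 to 1.09, adjusted p = 0.392) and 0.45 under olanzapine (SE 0.195, interval 0.05 to 0.85, adjusted p = 0.698), neither of which passed. On the linear scale the first is 1.61-fold.

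Of the 4 olanzapine-treated mice above every vehicle-treated mouse in Gpam, 3 were females and 1 was the male M27. Under olanzapine, the 4 females were at 14.25 to 15.05 and the 4 males at 13.35 to 14.41, beside vehicle-treated females at 13.57 to 14.30 and males at 13.31 to 14.39. The difference from vehicle was 0.85 in females (adjusted p = 0.474) and 0.05 in males (adjusted p = 0.994), and the difference between the sexes was -0.80 (SE 0.341, adjusted p = 0.92), which did not pass. Under risperidone, the 4 males (14.57 to 14.90) were above all 4 vehicle-treated males, a difference of 0.83 (adjusted p = 0.937), and the females (14.19 to 14.69) overlapped theirs, with a difference of 0.56 (adjusted p = 0.812). Gpam and Agpat2 were the 2 members whose risperidone-treated and vehicle-treated males did not overlap in liver, beside 3.36% of all genes.

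The next enzymes of the pathway had smaller differences from vehicle. Agpat2, which adds the next fatty acid, was at 12.29, 12.94 and 13.93 under vehicle (lowest, median, highest), 13.07, 13.52 and 14.07 under risperidone and 11.95, 12.77 and 14.47 under olanzapine. Its difference from vehicle was 0.57 under risperidone (interval 0.04 to 1.09, adjusted p = 0.86) and 0.02 under olanzapine (adjusted p = 0.999). The groups overlapped in both. Dgat2, which adds the last fatty acid, was at 15.05, 15.53 and 15.75 under vehicle, 15.51, 15.86 and 16 under risperidone and 14.81, 15.65 and 15.97 under olanzapine. The difference of 0.30 under risperidone (SE 0.126, interval 0.04 to 0.56, adjusted p = 0.829) came with 5 of 8 mice above every vehicle-treated mouse. Under olanzapine the Dgat2 difference was 0.05 (adjusted p = 0.982).

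Lpin1, the phosphatase that releases diacylglycerol, ranged widely within each group: 13.74 to 16.34 under vehicle, 14.92 to 16.77 under risperidone and 13.21 to 15.55 under olanzapine. Its differences from vehicle were 0.38 and -0.36 for risperidone and olanzapine, with adjusted p = 0.982 and 0.903. Dgat1 lay between 5.83 and 7.23 in all 24 livers, and Mogat1 between 5.37 and 7.43. Their differences from vehicle were 0.04 and -0.32 under risperidone and -0.06 and -0.04 under olanzapine, all with intervals that included 0.

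Over the 10 members, 0 passed under risperidone, beside 0.041% of all genes, and 3 had an unadjusted p under 0.05 (Gpam, Agpat2 and Dgat2, all higher), beside 5.4% of all genes. Under olanzapine 0 passed, beside 0.0205% of all genes, and Gpam alone had an unadjusted p under 0.05, beside 6.56% of all genes. The median difference over the members was 0.23 under risperidone and 0.14 under olanzapine, where the medians over all genes were 0.00 and 0.01. The 2 drugs were compared with the same vehicle group.

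**Figure D1:**
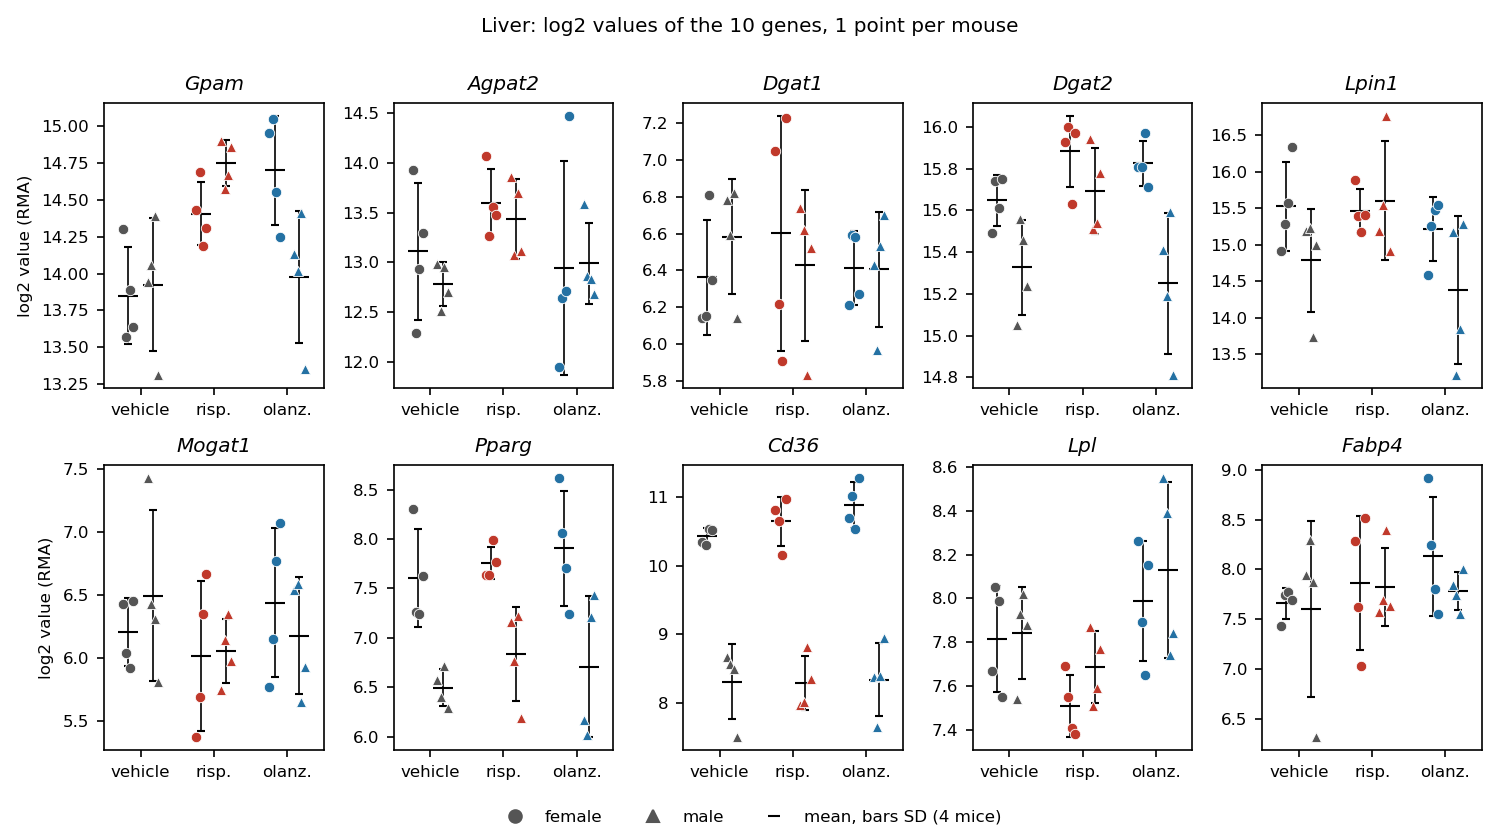
Log2 values of the 10 members in liver (y axis) for each of the 24 mice, grouped by vehicle, risperidone and olanzapine, with females as circles and males as triangles, and black bars for the mean and SD of the 4 mice of each sex. Risperidone-treated mice reached 14.19 to 14.90 in Gpam, beside 13.31 to 14.39 under vehicle, and the females at 10.15 to 11.28 were all above the males at 7.49 to 8.94 in Cd36.

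The uptake genes differed little between liver groups. Pparg was at 6.29, 6.98 and 8.30 under vehicle, 6.19, 7.43 and 7.99 under risperidone and 6.02, 7.33 and 8.62 under olanzapine, with differences from vehicle of 0.25 and 0.26 (adjusted p = 0.989 and 0.898). Cd36 was at 7.49, 9.48 and 10.54 under vehicle, 7.96, 9.48 and 10.97 under risperidone and 7.64, 9.74 and 11.28 under olanzapine, with differences of 0.10 and 0.25. Fabp4 differed from vehicle by 0.21 and 0.33, with all 24 mice between 6.31 and 8.92. None of these passed, and each group overlapped the others.

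Lpl was the liver member with the lowest p between the drugs. It lay at 7.54, 7.91 and 8.05 under vehicle, 7.38, 7.57 and 7.87 under risperidone and 7.65, 8.02 and 8.55 under olanzapine. Risperidone was below vehicle by 0.23 (adjusted p = 0.941) and olanzapine above it by 0.23 (adjusted p = 0.829). Between the drugs the difference was 0.46 (SE 0.134, interval 0.19 to 0.74, adjusted p = 0.284), with 5 of 8 olanzapine-treated mice above every risperidone-treated mouse. Lpin1 and Agpat2 lay the other way, with olanzapine minus risperidone at -0.74 (interval -1.37 to -0.10, adjusted p = 0.562) and -0.55 (interval -1.07 to -0.02, adjusted p = 0.621). No member passed between the drugs, beside 0.0564% of all genes, and these 3 had an unadjusted p under 0.05, beside 7.76% of all genes.

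In liver, Cd36, Pparg and Dgat2 were lower in males and passed (3 of 10 members, beside 6.23% of all genes). Cd36 lay at 10.15 to 11.28 in the 12 females and 7.49 to 8.94 in the 12 males, with no overlap, which was so for 0.641% of all genes. The difference was -2.35 (SE 0.154, interval -2.66 to -2.03, adjusted p = 3.02e-12), or 0.197-fold. Pparg was at 7.24 to 8.62 in females and 6.02 to 7.43 in males, with 11 of 12 males below every female and a difference of -1.08 (SE 0.174, interval -1.44 to -0.72, adjusted p = 9.4e-05). In the 8 vehicle-treated mice alone, the Pparg difference was -1.11 (adjusted p = 0.0801).

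Dgat2 was at 15.49 to 16 in female and 14.81 to 15.94 in male livers, a difference of -0.36 (SE 0.103, interval -0.57 to -0.15, adjusted p = 0.0309). This call was lost when any of 5 mice was left out: vehicle M1 (-0.34, adjusted p = 0.0562), olanzapine F7 (-0.34, adjusted p = 0.0577), olanzapine F26 (-0.35, adjusted p = 0.0521), olanzapine M9 (-0.31, adjusted p = 0.0546) or olanzapine M26 (-0.34, adjusted p = 0.0542). The other 7 members had sex differences between -0.48 (Lpin1, adjusted p = 0.334) and 0.12 (Lpl, adjusted p = 0.671). Macrophage markers averaged 9.19 to 10.23 in female and 8.40 to 9.06 in male livers, and endothelial markers 7.73 to 8.49 and 7.45 to 7.96. Cd36 is also made by both of these cell types, and their part in its sex difference was not tested. Adipocyte markers were at 4.55 to 5.38 in all livers.

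Of the other genes of the pathway in liver, none passed in either drug group over both sexes. Lowest in p among them were, under risperidone, Gpat3 (0.47, adjusted p = 0.697), another enzyme of the first step, Fabp5 (1.02, adjusted p = 0.941), Lipg (1.28, adjusted p = 0.215), an endothelial lipase, and Plin4 (0.98, adjusted p = 0.422), a lipid droplet coat protein. Under olanzapine they were Gpat4 (-0.65, adjusted p = 0.513), the microsomal enzyme of the first step, Acsl5 (0.49, adjusted p = 0.408), which activates fatty acids, Angptl8 (-0.76, adjusted p = 0.862), a lipase inhibitor, and Ncoa1 (-0.29, adjusted p = 0.802), a coactivator. These were chosen by the p itself within each of 4 lists, with 11, 14, 8 and 16 genes measured.

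Between the sexes, 7 of these 49 genes passed in liver, beside 6.23% of all genes. Higher in males were Gpat4 (0.65, adjusted p = 0.0143) and Fabp2 (0.75, adjusted p = 0.0198), a fatty acid binding protein. Lower in males were Gpat3 (-0.71, adjusted p = 0.000997), Acsl5 (-0.45, adjusted p = 0.0122), Vldlr (-0.71, adjusted p = 0.00125), a lipoprotein receptor, Lipg (-1.31, adjusted p = 0.00131) and Ppargc1a (-1.28, adjusted p = 0.0018), a coactivator of Pparg. The enzymes of the first step thus split by sex, with Gpat4 higher and Gpat3 lower in males and Gpam at -0.10 (adjusted p = 0.83).

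The members varied little together across livers. After treatment and sex were taken out, the median correlation over the 45 pairs of members was 0.058 over 24 mice, from -0.50 to 0.61 for Cd36 with Fabp4. The genes most alike to Dgat2 were Fnip2 (r = 0.857), Edc3 (r = 0.850) and Cyp2d22 (r = 0.839), those to Dgat1 were led by Atp5d (r = 0.858), those to Gpam by Npc1 (r = 0.790) and those to Lpin1 by Mfsd2a (r = 0.773). Mogat1 was led by Acox2 (r = 0.778), Cd36 by Tox (r = 0.786), Lpl by Fbxw22 (r = 0.799), Fabp4 by Cox8a (r = 0.793), Pparg by Bclaf3 (r = 0.791) and Agpat2 by Otud7a (r = 0.800). No member was among the 3 genes most alike to another member. Each of these genes is the highest among all those measured, so the values describe an order and were not tested.

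In fat, Agpat2 was the member with the lowest p against vehicle, under olanzapine. The 4 vehicle-treated females were at 13.69, 15.40, 15.48 and 15.54 and the 4 males at 10.13, 11.14, 11.34 and 12.93. The olanzapine-treated females were at 15.60, 15.67, 16.30 and 16.63 and the males at 12.01, 12.61, 14.04 and 14.43. Within each sex the drug group lay higher, without overlap in females and with overlap in males. The difference was 1.46 (SE 0.435, interval 0.56 to 2.35, adjusted p = 0.783), or 2.74-fold, and did not pass. It was 1.46 without the 3 males (adjusted p = 0.597) and 1.62 without all 5 (adjusted p = 0.732). Fitted by sex it was 1.02 in females (adjusted p = 0.906) and 1.89 in males (adjusted p = 0.843). Under risperidone Agpat2 was at 14.30 to 16.30 in females and 10.04 to 11.39 in males, and differed from vehicle by -0.04 (adjusted p = 0.977).

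Dgat2 in fat also had its olanzapine-treated females above all vehicle-treated females. Vehicle-treated females were at 13.30, 14.81, 15.94 and 15.97 and olanzapine-treated females at 16, 16.33, 16.41 and 16.56, a difference of 1.32 (SE 0.529, adjusted p = 1). Vehicle-treated males were at 14.14, 14.35, 14.46 and 14.97 and olanzapine-treated males at 14.49, 14.75, 14.88 and 14.91. Over both sexes the olanzapine difference was 0.80 (interval -0.12 to 1.72, adjusted p = 0.783). Agpat2 and Dgat2 were the 2 members whose olanzapine-treated and vehicle-treated females did not overlap, beside 3.36% of all genes. Mogat1 lay the other way in males, with olanzapine-treated males at 8.76 to 9.21, all below the vehicle-treated males at 9.41 to 9.63. The difference between the sexes in the olanzapine effect passed for 0 members, beside 0% of all genes (limma), and 0 members had an unadjusted p under 0.05.

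The other assembly genes lay closer to vehicle under olanzapine. Dgat1 differed by 0.75 (interval -0.20 to 1.70), Gpam by 0.30 (interval -0.47 to 1.06), Lpin1 by 0.20 and Mogat1 by -0.24, and the uptake genes Cd36, Lpl and Fabp4 and the receptor Pparg by -0.22, 0.33, -0.07 and 0.37. Members that passed were 0, beside 0% of all genes (limma). Agpat2 alone had an unadjusted p under 0.05, beside 5.46% of all genes. The median over the members was 0.31, beside -0.02 over all genes.

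Under risperidone, the 3 lowest Cd36 and Pparg values in fat were those of males. Cd36 was at 15.70 to 17.28 in all 8 vehicle-treated mice and 16.22 to 17.03 in the 4 risperidone-treated females. The risperidone-treated males were at 12.00 (M4), 12.66 (M5), 13.65 (M23) and 16.57 (M24), so that the 3 males with epididymis markers near 18.6 were the 3 lowest of all 24 mice. The difference from vehicle was -1.45 (SE 0.558, interval -2.60 to -0.29, adjusted p = 0.478) over all mice and -0.06 without those 3 males. Pparg followed the same pattern, with risperidone-treated males at 9.32, 8.73, 9.92 and 11.88 in the same order, a difference of -1.05 (interval -2.05 to -0.06, adjusted p = 0.537) over all mice and -0.02 without the 3.

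The Gpam difference in fat was smaller without the 3 males. The risperidone-treated males were at 10.27, 9.19, 9.68 and 11.09 for M4, M5, M23 and M24, all below the 4 vehicle-treated males at 11.37 to 12.35, the only such separation among the members in males, beside 4.63% of all genes. Female F6 at 11.10 was also below every vehicle-treated mouse, beside the other risperidone-treated females at 13.02 to 13.35. The difference was -0.91 (interval -1.67 to -0.14, adjusted p = 0.5), and -0.33 without the 3 males. F6 was the lowest risperidone-treated female in Dgat1 (11.85) and Pparg (11.95) too, with adipocyte markers at 13.50, the lowest of the 12 females.

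Under risperidone 0 of the 10 members lay above vehicle over 24 mice, beside 45.1% of all genes. Without the 3 males 5 of the 10 lay above vehicle, beside 51.3% of all genes, and without all 5 males 7 did, beside 50.3%. Those that passed were 0, beside 0% of all genes (limma), and 3 had an unadjusted p under 0.05, beside 9.03% of all genes. Within males alone, Cd36 (-2.68, adjusted p = 0.025) and Dgat2 (-2.0, adjusted p = 0.034) passed, 2 of 10 members beside 4.03% of all genes. Without the 3 males these values were 0.17 and -0.13, and 0 members passed beside 0.0154% of all genes, in a fit where the 1 risperidone-treated male left was assumed to vary like the other mice. The risperidone effect in males against females passed for 0 members, beside 0.0513% of all genes, with Dgat2 at -2.58 (adjusted p = 0.188) and Cd36 at -2.47 (adjusted p = 0.303). Without M24 it passed for 5 members, beside 7.74% of all genes, among them Dgat2 at -3.20 (adjusted p = 0.0021) and Cd36 at -3.42 (adjusted p = 0.00246), while without M4, M5 and M23 it was 0.38 for Cd36. In females the median over the members was -0.04, and 4 of 10 lay above 0, beside 50.7% of all genes.

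Of the drug comparisons in fat over both sexes, olanzapine against risperidone had the most members, 8 of 10, at an unadjusted p under 0.05, beside 9.23% of all genes, and 0 that passed (0% of all genes). Agpat2, Dgat1, Dgat2, Pparg, Cd36 and Gpam were higher under olanzapine by 1.5, 1.51, 1.51, 1.42, 1.23 and 1.20, with adjusted p from 0.276 to 0.493. Without the 3 males the values were 1.06 for Agpat2 (adjusted p = 0.486), 0.79 for Dgat1, 0.53 for Dgat2, 0.39 for Pparg, 0.62 for Gpam and -0.16 for Cd36, which had turned its sign. Agpat2 alone then had an unadjusted p under 0.05, 1 of 10 members beside 10.3% of all genes.

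**Figure D2:**
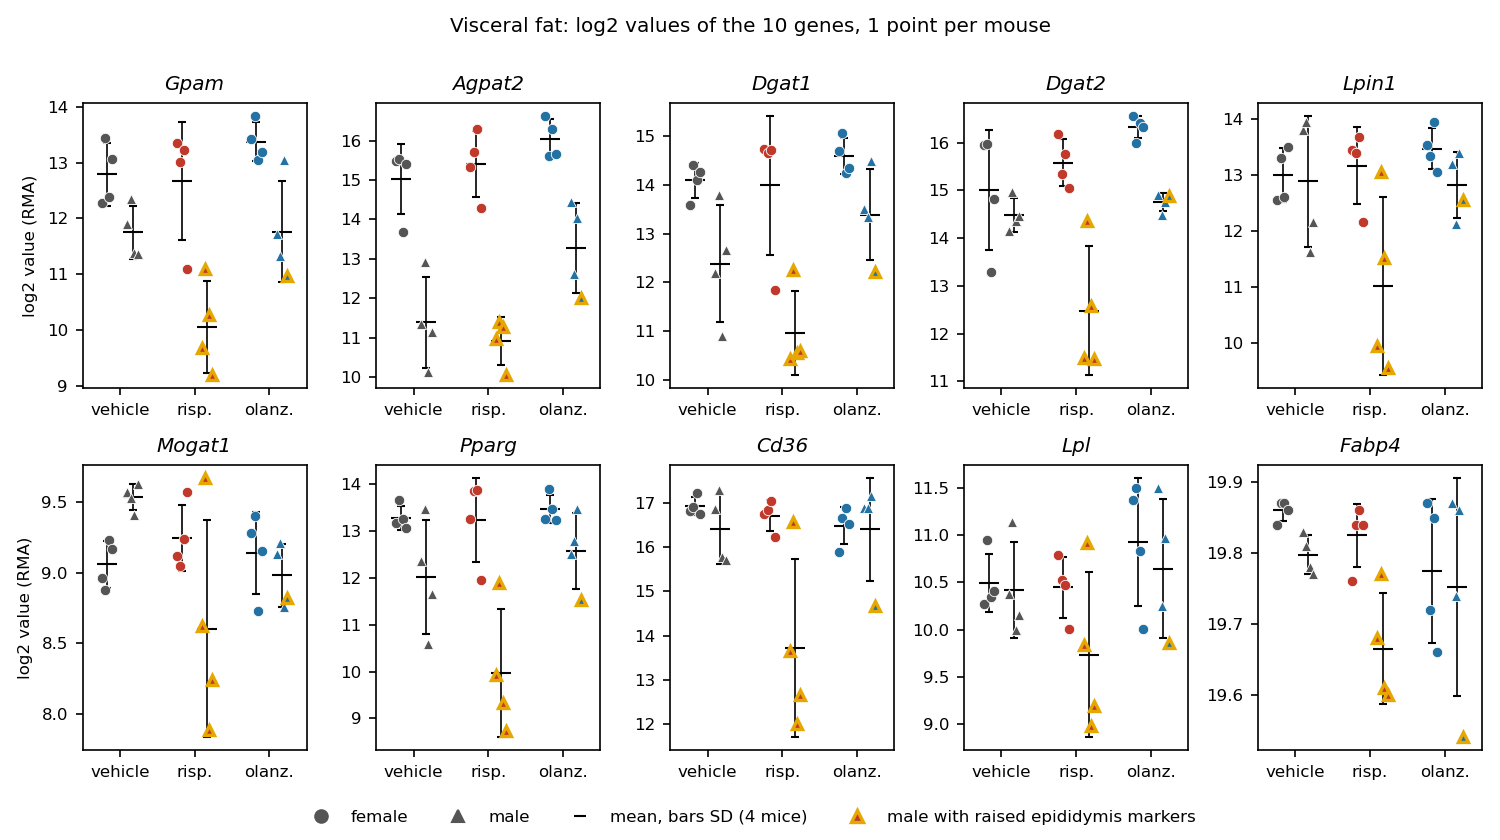
Log2 values of the 10 members in fat (y axis) for each of the 24 mice by treatment and sex, with black bars for the mean and SD of 4 mice and the males with raised epididymis markers edged in orange. The lowest Cd36 values, 12.00, 12.66 and 13.65, belong to 3 of the orange-edged risperidone-treated males, and the Agpat2 values of males (10.04 to 14.43) lie mostly below those of females (13.69 to 16.63).

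**Figure D3:**
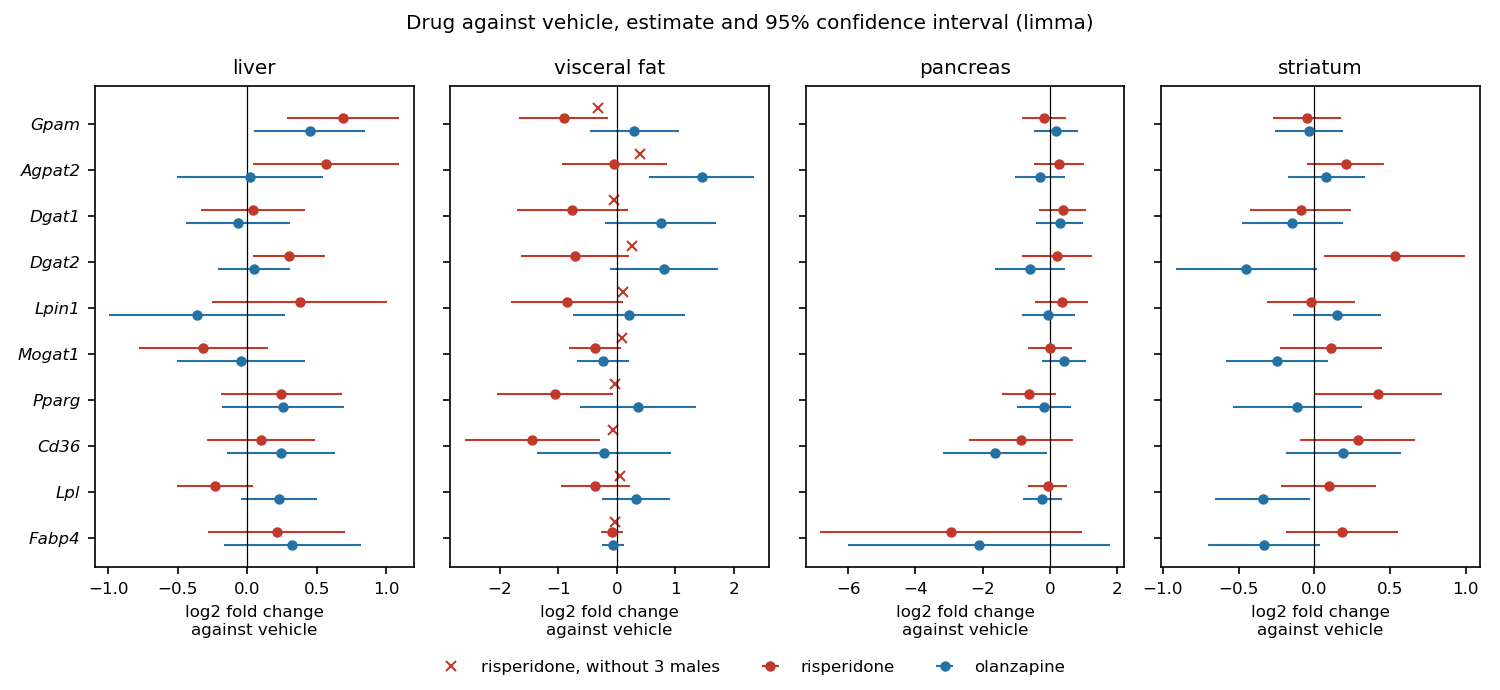
Difference from vehicle on the log2 scale with 95% intervals for the 10 members in each tissue, risperidone and olanzapine apart, 8 mice a group. Crosses give the risperidone difference in fat without 3 males, where Cd36 moves from -1.45 to -0.06 and Pparg from -1.05 to -0.02, and in liver Gpam lies at 0.69 and 0.45.

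In fat the sexes differed in most of the assembly genes. Agpat2, Gpam, Dgat1, Dgat2 and Pparg were lower in males and passed, 5 of 10 members beside 4.6% of all genes. The Agpat2 difference was -3.64 (SE 0.355, interval -4.37 to -2.91, adjusted p = 5.44e-07), or 0.0802-fold, with 10 of 12 males below every female. It was -3.35 without the 3 males (adjusted p = 1.09e-05) and -3.05 without all 5 (adjusted p = 0.000381), and Agpat2 was the only member that passed in all 3 fits, beside 4.93% and 1.49% of all genes in the smaller fits. In the 8 vehicle-treated mice the Agpat2 difference was -3.64 (adjusted p = 0.0588).

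The other 4 shrank as the males with epididymis markers were left out. Gpam was -1.75 (SE 0.302, adjusted p = 0.000647) in 24 mice, -1.37 (adjusted p = 0.0074) in 21 and -1.18 (adjusted p = 0.0738) in 19. Dgat1 was -1.98 (SE 0.376, adjusted p = 0.00181), -1.5 (adjusted p = 0.0219) and -1.29 (adjusted p = 0.147). Dgat2 went from -1.73 (SE 0.365, adjusted p = 0.00485) to -1.08 (adjusted p = 0.0251) and -1.03 (adjusted p = 0.131). The 3 enzymes thus kept their direction and passed with 21 mice but not with 19. In the 8 vehicle-treated mice alone none of the 3 passed, with Gpam at -1.04 (adjusted p = 0.275), Dgat1 at -1.71 (adjusted p = 0.256) and Dgat2 at -0.53 (adjusted p = 0.705). Dgat2 also did not pass when quantile normalization was repeated within the tissue (-1.37, adjusted p = 0.0747). Pparg was at -1.81 (SE 0.393, adjusted p = 0.00645), -1.12 (adjusted p = 0.0393) and -0.93 (adjusted p = 0.209), and at -1.26 (adjusted p = 0.381) in the vehicle-treated mice.

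None of the uptake genes passed between the sexes in fat. Cd36 was -1.20 (adjusted p = 0.145) in 24 mice and -0.27 without the 3 males. Lpin1 was -0.97 (adjusted p = 0.161) and -0.33. Lpl, Mogat1 and Fabp4 were at -0.36, -0.11 and -0.08, with adjusted p from 0.506 to 0.858. Mogat1 turned its sign to 0.20 without the 3 males. Of the 24 Fabp4 values, 19.54 to 19.87, 12 lay within 0.1 of 19.93, the highest value in the whole table, so that the scale left Fabp4 little room in fat.

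**Figure D4:**
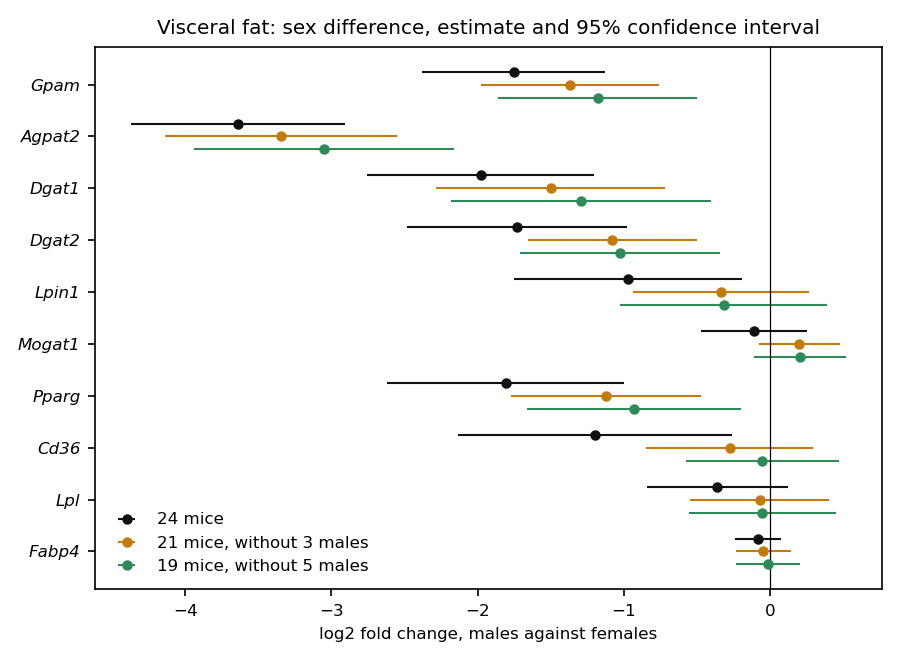
Males minus females in fat on the log2 scale with 95% intervals for the 10 members, fitted over 24 mice, over 21 without the 3 males with the highest epididymis markers, and over 19 without all 5. Agpat2 lies at -3.64, -3.35 and -3.05, while Pparg moves from -1.81 to -1.12 and -0.93.

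Other genes of the pathway were lower in the fat of males as well. Of the 49 measured, 8 passed, beside 4.6% of all genes, and all were lower in males: Gpd1 (-2.18, adjusted p = 0.000123), which makes glycerol 3-phosphate, Gpat3 (-0.57, adjusted p = 0.046), Fabp5 (-2.83, adjusted p = 5.61e-06), Slc27a1 (-2.31, adjusted p = 0.000282), a fatty acid transporter, Fabp3 (-1.6, adjusted p = 0.0309), Cidea (-2.75, adjusted p = 5.2e-06), a lipid droplet protein of thermogenic adipocytes, Plin2 (-2.70, adjusted p = 0.000418) and Ppargc1a (-1.26, adjusted p = 0.0032). Without the 3 males, 7 of the 8 passed, beside 4.93% of all genes, and Gpat3 did not (-0.45, adjusted p = 0.154). Cidea was then at -2.76 (adjusted p = 7.86e-05) and Fabp5 at -2.33 (adjusted p = 5.59e-05), and without all 5 males at -2.66 and -2.21. In the drug groups none passed over both sexes. In males alone under risperidone, where 4.03% of all genes passed, Acsl4 (1.91, adjusted p = 0.0254), which activates fatty acids, and Lipg (2.12, adjusted p = 0.0399) were higher and Plin4 (-2.30, adjusted p = 0.0263) and Pck1 (-2.69, adjusted p = 0.0053), an enzyme that feeds glycerol 3-phosphate, were lower. Without the 3 males these values were 0.64, -0.10, 0.13 and -0.94, and none passed. Over both sexes, the lowest p in each list went, under risperidone, to Agpat5 (0.30, adjusted p = 0.701), Acsl4 (0.94, adjusted p = 0.502), Lipg (1.18, adjusted p = 0.476) and Aqp7 (-1.40, adjusted p = 0.453), a glycerol channel, and, under olanzapine, to Gpd1 (1.38), Slc27a2 (-0.44), Angptl8 (0.42) and Ppargc1a (0.61), each with adjusted p = 0.783.

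Most members followed the adipocyte markers across mice. Because M4, M5 and M23 formed a cluster of their own, correlations in fat were taken over the other 21 mice, after treatment and sex were removed, in a family of 40 relations. M24, then the only risperidone-treated male, lay at its own group mean and added nothing to r. Agpat2 had r = 0.845 (rho 0.851, adjusted permutation p = 0.000133, r = 0.796 without the 2 mice farthest from the median), Pparg r = 0.830 (rho 0.730, adjusted p = 0.000133, then r = 0.743) and Cd36 r = 0.834 (rho 0.692, adjusted p = 0.000133, then r = 0.671). Lpl (r = 0.819, rho 0.848), Lpin1 (r = 0.778, rho 0.864), Dgat1 (r = 0.773, rho 0.678), Gpam (r = 0.747, rho 0.760) and Fabp4 (r = 0.723, rho 0.721) passed as well, with adjusted permutation p from 0.0002 to 0.00152 and r from 0.623 to 0.888 without the 2 farthest. Dgat2 and Mogat1 did not pass. Within the 12 females only Lpin1 passed (r = 0.893, adjusted permutation p = 0.0072), beside Dgat1 at r = 0.816 (adjusted p = 0.0506), Pparg at 0.799 (0.0506), Gpam at 0.794 (0.051), Agpat2 at 0.734 (0.0904) and Cd36 at 0.382 (0.526). The adipocyte markers lay at 13.50 to 14.89 in all females and 11.04 to 15.12 in all males.

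Members also varied together in fat, with a median over the 45 pairs of 0.556 in 21 mice, from -0.455 to 0.902 for Dgat1 with Pparg. The genes most alike to Gpam were Lipe (r = 0.920), the hormone-sensitive lipase, Dhrs7b (r = 0.897) and Aldh2 (r = 0.887). Those to Pparg were Slc25a4 (r = 0.964), Ghitm (r = 0.952) and Bckdhb (r = 0.948), all of the mitochondrion. Cd36 was most alike to Ebf1 (r = 0.942), a transcription factor of adipocyte differentiation, Ghr (r = 0.941) and Sparc (r = 0.930). Agpat2 was led by Itga7 (r = 0.941), Dgat1 by Orc3 (r = 0.933), Dgat2 by Slc25a35 (r = 0.862), Lpin1 by Washc5 (r = 0.906), Lpl by Surf2 (r = 0.932), Fabp4 by Pnpla2 (r = 0.894), the first lipase of triglyceride breakdown, and Mogat1 by Vmn2r16 (r = 0.768).

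In pancreas, the members with the widest spread were Fabp4 and Cd36. Fabp4 was at 10.11, 18.80 and 19.93 under vehicle (lowest, median, highest), 9.07, 12.56 and 19.93 under risperidone and 8.85, 15.17 and 19.88 under olanzapine. Every group held both low and high mice, and 7 of the 24 values were within 0.1 of the top of the scale. The differences from vehicle were -2.94 (SE 1.888, adjusted p = 0.999) and -2.11 (adjusted p = 0.771). In males, vehicle values of 16.96 to 19.93 stood above the olanzapine values of 8.85 to 15.69, and risperidone-treated males were at 10.49 to 18.55. Of the 4 vehicle-treated males, 3 were within 0.1 of the top of the scale, so that the fitted differences of -6.40 (adjusted p = 0.543) and -5.63 (adjusted p = 0.993) can only be read as bounds, at least that large in these mice.

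Cd36 in pancreas was at 5.88, 7.77 and 10.96 under vehicle, 5.73, 6.45 and 10.23 under risperidone and 4.81, 6.05 and 9.06 under olanzapine. Its difference from vehicle under olanzapine was -1.63 (SE 0.751, interval -3.17 to -0.08, adjusted p = 0.599), the only one of a member there with an unadjusted p under 0.05, beside 8.24% of all genes. Vehicle-treated males were at 7.56 to 10.96 and overlapped neither the risperidone-treated (5.73 to 6.80) nor the olanzapine-treated males (5.52 to 6.12). Those differences were -2.52 (adjusted p = 0.993) and -2.93 (adjusted p = 0.512). Of the 10 members, Dgat2, Cd36, Lpl and Fabp4 had olanzapine-treated males without overlap with vehicle-treated males, beside 5.59% of all genes, and Cd36 alone had so under risperidone, beside 4.16%.

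Adipocyte markers moved with Cd36 and Fabp4 over all mice and within females, and less clearly within males. Their mean was 6.74 to 10.16 in pancreas, and over 24 mice, in a family of 120 relations, Cd36 followed it with r = 0.742 (rho 0.746, adjusted permutation p = 0.0004, r = 0.614 without the 2 farthest mice) and Fabp4 with r = 0.612 (rho 0.709, adjusted permutation p = 0.00571, then r = 0.685). Within females the values were r = 0.853 (adjusted permutation p = 0.0137) for Cd36 and 0.857 (0.0132) for Fabp4. Within males they were 0.809 for Cd36, which fell to 0.011 without the 2 farthest mice and so rests on those, and 0.415 (adjusted permutation p = 0.35) for Fabp4. Vehicle-treated male M1 held the highest value in both the markers (10.16) and Cd36 (10.96). In the markers, vehicle-treated males (7.02 to 10.16) overlapped olanzapine-treated males (6.74 to 7.64), which they did not in Fabp4 or Cd36. The part of adipocytes in the drug differences of males was not tested.

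The assembly genes of pancreas passed in no comparison. Dgat2 was at 7.00, 7.41 and 8.50 under vehicle, 5.85, 7.38 and 10.45 under risperidone and 6.40, 6.82 and 7.62 under olanzapine. The 2 highest values were of risperidone-treated females F4 (10.45) and F5 (10.27), whose hepatocyte markers were at 15.65 and 10.55, beside 5.85 to 7.69 in the other risperidone-treated mice. Vehicle-treated males M19 and M3 also had hepatocyte markers above those of F5, at 12.28 and 11.08, and were at 7.55 and 7.20 in Dgat2. Lpin1 was higher in the 4 risperidone-treated females (8.17, 8.25, 8.63 and 9.44) than in the 4 vehicle-treated females (7.19, 7.34, 7.37 and 7.54), a difference of 1.26 (adjusted p = 0.999) without overlap, which only Lpin1 among the members showed there, beside 1.68% of all genes. In males the mean of Lpin1 was lower under risperidone, with values of 6.54 to 8.31 beside 7.27 to 9.20 under vehicle, which overlapped. The risperidone effect on Lpin1 in males against females was -1.84 (adjusted p = 0.98, limma) and did not pass. Acinar cell markers were at 14.8 to 15.7 in the vehicle-treated females. They were at 17.6 to 18.0 in risperidone-treated females F5, F6 and F23 and at 14.7 in F4. The part of these cells, or of the hepatocyte markers in F4 and F5, in the Lpin1 difference of females was not tested. Members that passed were 0 under risperidone, 0 under olanzapine and 0 between the drugs, each beside 0% of all genes, and 0 between the sexes, beside 0.108%. At an unadjusted p under 0.05 there were 632 genes (3.24%), 1607 genes and 784 genes (4.02%) in these 3 drug comparisons (limma). No other gene of the pathway passed in the drug groups. The lowest p was that of Lpin2 (0.50), Acsl5 (-0.56), Lmf1 (-0.65) and Aqp7 (-0.91) under risperidone, each with adjusted p = 0.999, and of Lpin3 (0.78, adjusted p = 0.613), Acsl5 (-0.90, adjusted p = 0.572), Angptl8 (0.52, adjusted p = 0.572) and Plin2 (-0.87, adjusted p = 0.648) under olanzapine.

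In striatum, Dgat2 was the only member to pass in a drug comparison, and it did so between the drugs. Under vehicle it was at 10.28, 10.98 and 11.58, under risperidone at 10.78, 11.65 and 11.89 and under olanzapine at 9.50, 10.82 and 11.10. Of the 8 olanzapine-treated mice, 4 were below every risperidone-treated mouse, and both drug groups overlapped vehicle. Olanzapine was below risperidone by 0.98 on the log2 scale (SE 0.227, interval -1.45 to -0.51, adjusted p = 0.0142), or 0.507-fold, 1 of 10 members beside 4.86% of all genes. Against vehicle it was 0.53 under risperidone (interval 0.06 to 1.00, adjusted p = 0.913) and -0.45 under olanzapine (adjusted p = 0.496), neither of which passed, so that the difference between the drugs was made of values on both sides of vehicle.

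Projection neuron markers moved with Dgat2. Their mean was 14.67 to 16.52 under vehicle, 15.65 to 16.64 under risperidone and 12.61 to 15.56 under olanzapine, the last with no overlap with risperidone. Against vehicle these markers differed by 0.52 under risperidone and -0.87 under olanzapine. Neither passed (exact permutation, adjusted p = 0.626 and 0.615). In a relation added after seeing the data, Dgat2 followed them over 24 mice with r = 0.951 (rho 0.970, adjusted permutation p = 0.0002, r = 0.934 without the 2 farthest mice), with r = 0.955 in females and 0.948 in males. Olanzapine-treated female F26 was lowest in both, at 9.50 and 12.61. Without F26 the Dgat2 difference between the drugs was -0.82 (adjusted p = 0.0393). How much of the Dgat2 difference lay in these neurons was not tested. Choroid plexus markers, which mark a neighboring tissue, were at 6.89 to 9.88 under vehicle, 7.09 to 11 under risperidone and 6.90 to 8.86 under olanzapine.

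**Figure D5:**
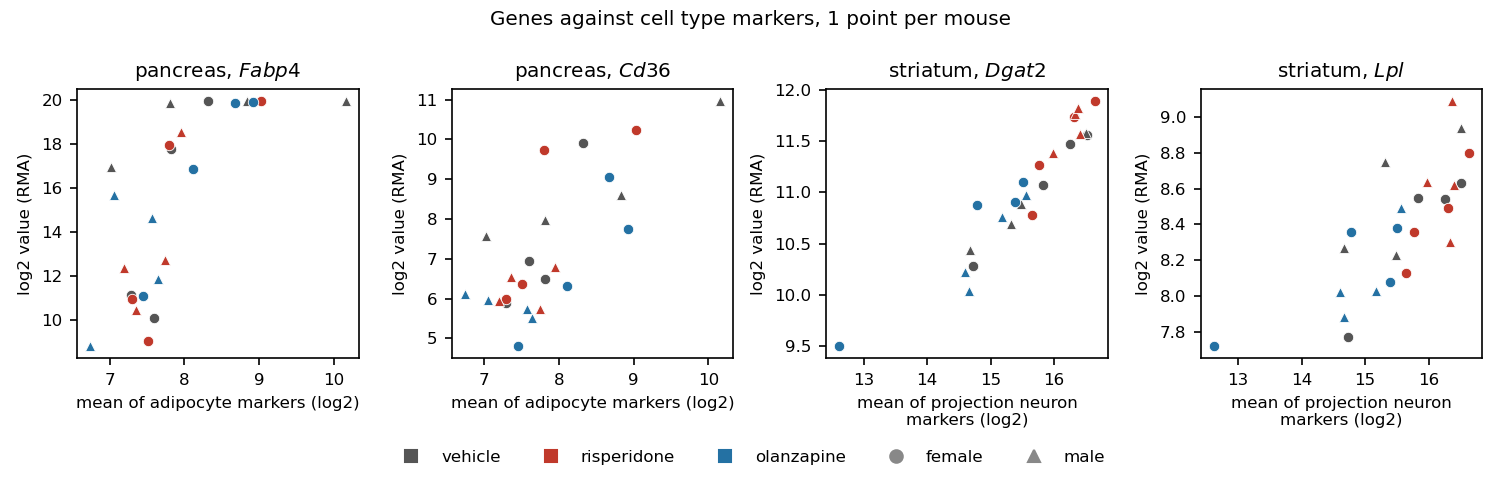
Member values (y axis, log2) against the mean of cell type markers (x axis, log2) for each mouse: Fabp4 and Cd36 against adipocyte markers in pancreas, Dgat2 and Lpl against projection neuron markers in striatum, colored by treatment. Striatal Dgat2 runs from 9.50 at a marker mean of 12.61 to 11.89 at 16.64, and pancreatic Cd36 is highest, at 10.96, where the adipocyte markers are at 10.16.

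Lpl, Pparg, Fabp4 and Mogat1 in striatum lay lower under olanzapine than under risperidone without passing. Lpl was at 7.77, 8.54 and 8.94 under vehicle, 8.13, 8.55 and 9.09 under risperidone and 7.72, 8.05 and 8.49 under olanzapine, with -0.34 against vehicle (adjusted p = 0.427) and -0.43 between the drugs (adjusted p = 0.102). Lpl also followed the projection neuron markers (r = 0.730, rho 0.749, adjusted permutation p = 0.0002, r = 0.703 without the 2 farthest mice). Between the drugs, Pparg differed by -0.53 (adjusted p = 0.141), Fabp4 by -0.51 (adjusted p = 0.101) and Mogat1 by -0.36 (adjusted p = 0.224). Without olanzapine-treated male M9 the Pparg difference was -0.69 and passed (adjusted p = 0.0151). Against vehicle 0 members passed under either drug, beside 0% of all genes, and 1 member each, Dgat2 and Lpl, had an unadjusted p under 0.05, beside 5.4% and 10.5% of all genes. Between the sexes 0 members passed, beside 0.39% of all genes.

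Gpam in striatum lay on opposite sides of vehicle in the sexes under risperidone. The females were at 11.78, 11.84, 11.88 and 11.91, above the vehicle-treated females at 11.44, 11.46, 11.65 and 11.73. The males were at 11.37, 11.40, 11.54 and 11.56, below the vehicle-treated males at 11.78, 11.86, 11.87 and 11.87. Neither pair overlapped, as was so for 2.29% of all genes in females and 3.22% in males. Gpam was the only such member in females and 1 of 2 in males. The other was Pparg, with risperidone-treated males at 7.44 to 8.51, above vehicle-treated males at 6.78 to 7.43. The Gpam differences were 0.28 in females (adjusted p = 0.998) and -0.38 in males (adjusted p = 0.692). The Gpam difference between the sexes in the risperidone effect was -0.66 (SE 0.182, interval -1.04 to -0.29, adjusted p = 0.852) and did not pass. Under olanzapine, the Gpam values of males (11.31 to 11.74) also lay below all vehicle-treated males, and those of females (11.56 to 11.89) overlapped vehicle. The difference between the sexes in the olanzapine effect was -0.44 (adjusted p = 0.808) and did not pass. Both drugs were compared with the same vehicle-treated mice.

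Other genes of the pathway in striatum passed only between the drugs. Olanzapine was above risperidone in Agpat5 (0.58, adjusted p = 0.0193) and Fabp7 (1.6, adjusted p = 0.0112), the brain fatty acid binding protein of astrocytes, and below it in Gpd1 (-0.65, adjusted p = 0.0175), Lipg (-0.56, adjusted p = 0.0325) and Rxrg (-1.71, adjusted p = 0.0235), a partner receptor that projection neurons express. Against vehicle, the lowest p was that of Lpin3 (-0.35), Fabp2 (-0.36), Lipg (0.46) and Cebpa (0.33) under risperidone, each with adjusted p = 0.913, and of Agpat5 (0.53, adjusted p = 0.268), Fabp7 (1.06, adjusted p = 0.268), Apoc3 (-0.18, adjusted p = 0.703) and Rxrg (-1.02, adjusted p = 0.402) under olanzapine.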

How the data were processed

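RNA from 4 tissues of 24 mice was hybridized to Clariom S arrays, with 1 labeling kit for liver and striatum and another for pancreas and fat. The authors normalized the scans by RMA and deposited log2 values, with Affymetrix Expression Console 1.4 as the software in the submitters' processing notes. Whether tissues were normalized together, and a genome build, were not given in the sources used here. Tissues were therefore not compared by test. Of 22206 transcript clusters, 19572 carried 1 gene symbol and 2634 none. Clusters of a gene were averaged (55 genes), which gave 19505 genes. For each tissue, limma 3.58.1 in R 4.3.3 fitted treatment and sex over 24 mice, and treatment by sex for the within-sex and interaction values, with Benjamini-Hochberg adjustment over all genes and a threshold of 0.05. The replicate was the mouse, and the number of arrays limits precision. Marker list means were compared by exact permutation (12870 relabellings, two-sided), and correlations of residuals were tested with 100000 permutations in Python 3.11.15. None of the 112 comparisons of a list mean with vehicle passed (lowest adjusted p = 0.615, exact permutation). That holds for the epididymis markers in fat under risperidone too (4.34, adjusted p = 0.615). These relabellings mixed females and males and took no account of sex, so they did not test a difference within males. The permutations of residuals took no account of the group means removed, so their p-values can be too small. The fit was tested on simulated data. Members and lists were chosen with earlier results of these data known. All 10 members are named, and of other pathway genes those that passed, up to 5 a list and comparison, and the lowest p of each list in each comparison with vehicle. Pathway and marker genes without a matching symbol were not analysed here.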

Additional observations from a re-analysis of the deposited data

Results flagged for a closer look

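In 120 groups of 8 mice (10 members in 12 groups), 3 held a mouse far from the rest. Chance flags about 1 in 20 groups. In liver, vehicle-treated male M1 was at 7.43 in Mogat1, where the next was 6.45, and vehicle-treated male M3 at 6.31 in Fabp4, where the next was 7.43. In pancreas, vehicle-treated male M21 was at 8.50 in Dgat2, where the next was 7.65. None of the 3 genes passed between a drug and vehicle in that tissue.

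Striatal Gpam was picked out because every risperidone-treated female lay above every vehicle-treated female and every risperidone-treated male below every vehicle-treated male. The difference between the sexes was -0.66 and did not pass over all genes (adjusted p = 0.852, limma). Olanzapine-treated males (11.31 to 11.74) also lay below every vehicle-treated male, so this position of males was not particular to risperidone.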

How the results depend on the processing

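The counts of members that passed were recomputed under other variance, normalization, probe, filter and sample choices and without each mouse in turn. Drug and vehicle groups shared no mouse number, but 8 numbers were shared by a female and a male of one treatment. Same-numbered mice deviated from their group means with correlations of -0.295 to 0.497 over genes, and 4 to 6 of 16 mice a tissue correlated best with their own number among 4 of the other sex, so the numbers were not taken as pairs. With the mouse number as a replicate block over those 16 mice, a fit added after seeing the data, 2 members passed between the sexes in liver and 5 in fat, as without the block in the same mice. Dgat2 in liver did not pass in either (-0.37, adjusted p = 0.22 with the block and 0.181 without). In liver, 3 members passed between the sexes, 2 to 3 without each mouse and 1 in the 8 vehicle-treated mice alone, beside 0.651% of all genes. In fat, 5 passed between the sexes, 5 without each mouse, 0 in the 8 vehicle-treated mice, beside 0.149% of all genes, and 1 without the 5 males with raised epididymis markers. Of the risperidone effect in males against females in fat, 0 passed, 6 with array weights (9.43% of all genes) and 0 to 5 without each mouse, with 5 without risperidone-treated male M24 (7.74% of all genes). In striatum, 1 passed between the drugs, 4 with array weights (11.4% of all genes) and 1 to 2 without each mouse, with 2 without olanzapine-treated male M9 (9.56% of all genes). Array weights turned the risperidone difference of Dgat1 in liver to -0.03 and of Agpat2 and Dgat2 in fat to 0.37 and 0.005. Olanzapine differences turned to -0.009 for Agpat2 in liver with arrays centered on their medians, 0.001 for Mogat1 in liver with a term for low against high mouse numbers, and -0.062 for Lpin1 in fat with quantile normalization repeated. Without the 3 males, the risperidone differences in fat turned to 0.40 for Agpat2, 0.27 for Dgat2, 0.10 for Lpin1, 0.093 for Mogat1 and 0.063 for Lpl, Cd36 between the drugs to -0.16 and its risperidone effect in males against females to 0.38. Without the 5 males they turned to 0.68 for Agpat2, 0.11 for Dgat1, 0.33 for Dgat2, 0.07 for Lpin1, 0.051 for Mogat1, 0.12 for Pparg and 0.024 for Cd36, and Cd36 under olanzapine to 0.031. In the 12 females alone they were 0.39 for Agpat2, 0.58 for Dgat2, 0.18 for Lpin1 and 0.19 for Mogat1, with Mogat1 under olanzapine at 0.08 and Cd36 between the drugs at -0.23. The Dgat2 sex difference in liver was -0.34 (adjusted p = 0.0546) with arrays centered, and that in fat -1.37 (adjusted p = 0.0747) with quantile normalization repeated. The cause of these shifts was not tested. Fewer mice entered the smaller fits. Of 719 planned values, 695 kept their direction and side of the threshold, as did 1261 of 1272 without a mouse and 99 of 126 in the fits added after seeing the data.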
